A study of Mus musculus with 8 samples.

Results

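The Ms4a genes described here are *Ms4a4a*, *Ms4a4b*, *Ms4a4c*, *Ms4a6b*, *Ms4a6c*, *Ms4a6d* and *Ms4a7*, 7 of the 19 genes with an Ms4a symbol among the 32285 genes measured. They were listed by symbol, with earlier results of these data known, and all 7 had counts. RNA was counted as unique molecular identifiers (UMIs) in single CD45+ cells of mammary tumors taken from female mice on day 18 after implantation. The tumors grew from E0771, a mouse mammary carcinoma line (2 mice), or from E0771-Res1 or E0771-Res2 (3 mice each), lines made from E0771 tumors that relapsed after paclitaxel plus anti-PD-1. Each resistant line is thus 1 derivation, and the mice are repeats of a tumor line and not of a resistant state. The hosts carried no allele or treatment that the labels name, their age is not given in the sources used here, and the study names C57BL/6 mice as hosts of E0771 tumors. Of 11430 cells, 10605 had 500 to 6000 detected genes and under 10% mitochondrial UMIs and were kept, between 604 and 2020 per mouse. Kept cells held 4993722 to 18544500 UMIs per mouse, and no cell barcode was shared between mice.

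MS4A proteins cross the cell membrane several times and sit beside receptors, whose signaling they tune. The best known are MS4A1 (CD20) of B cells and MS4A2, the β chain of the high-affinity IgE receptor of mast cells and basophils. In mice, MS4A4B is known as a surface protein of T cells that partners with the costimulatory receptor GITR (*Tnfrsf18*), whereas MS4A4A and MS4A7 are known from macrophages, and the human MS4A cluster has been tied to soluble TREM2. *Ms4a4b*, *Ms4a4c*, *Ms4a6b*, *Ms4a6c* and *Ms4a6d* belong to branches of the family that have expanded in rodents, and close copies can share reads. A value for one of them is therefore uncertain as far as counting could not separate it from its neighbors.

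All 7 genes are protein coding and lie within 283.8 kb of chromosome 19 (GRCm38). From one end they run *Ms4a7* (11321039 to 11336146, minus strand), *Ms4a4a* (11375523 to 11392790, plus), *Ms4a4c* (11404770 to 11427246, plus), *Ms4a4b* (11443553 to 11467055, plus), *Ms4a6c* (11469366 to 11482192, plus), *Ms4a6b* (11516512 to 11531256, plus) and *Ms4a6d* (11586604 to 11604849, minus). *Ms4a4b*, the member that stood apart in lymphocytes, thus begins 16306 bases after the end of *Ms4a4c* and ends 2310 bases before *Ms4a6c*, both of which were high in myeloid cells.

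Promoter windows of RefSeq (GRCm38.p6), 250 bases before to 50 after a gene's start, were found for 6 members. The 250 bases before the start are shown for the closest pairs, *Ms4a4b* with *Ms4a4c* and *Ms4a6b* with *Ms4a6c*. The genes of the first pair went separate ways between lymphocytes and myeloid cells. Those of the second were both high in myeloid cells but unlike in T cells. Against monocytes, T cells differed by -1.14 for *Ms4a6b* and -3.28 for *Ms4a6c* on the log2 scale. Capitals mark the longest run that a pair shares. For *Ms4a4c* and *Ms4a6b* the RefSeq start lies downstream of the outermost GENCODE start given above.
Ms4a4b promoter, chr19:11443308-11443557, plus strand: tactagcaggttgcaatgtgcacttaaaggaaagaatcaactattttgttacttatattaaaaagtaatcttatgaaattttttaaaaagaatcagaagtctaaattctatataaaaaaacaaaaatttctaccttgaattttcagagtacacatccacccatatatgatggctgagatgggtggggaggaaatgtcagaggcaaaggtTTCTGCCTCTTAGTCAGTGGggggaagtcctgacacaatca
Ms4a4c promoter, chr19:11407411-11407660, plus strand: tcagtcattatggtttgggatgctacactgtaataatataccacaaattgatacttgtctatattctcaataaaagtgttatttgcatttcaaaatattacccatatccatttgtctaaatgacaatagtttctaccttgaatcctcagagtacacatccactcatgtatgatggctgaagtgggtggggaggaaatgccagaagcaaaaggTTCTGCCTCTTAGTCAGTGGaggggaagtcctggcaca
Ms4a6b promoter, chr19:11518309-11518558, plus strand: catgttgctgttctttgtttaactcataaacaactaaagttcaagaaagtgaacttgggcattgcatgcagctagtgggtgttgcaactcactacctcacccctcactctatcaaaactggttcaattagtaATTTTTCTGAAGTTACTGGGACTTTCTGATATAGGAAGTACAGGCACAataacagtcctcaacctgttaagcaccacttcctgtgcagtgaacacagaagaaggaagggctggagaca
Ms4a6c promoter, chr19:11469118-11469367, plus strand: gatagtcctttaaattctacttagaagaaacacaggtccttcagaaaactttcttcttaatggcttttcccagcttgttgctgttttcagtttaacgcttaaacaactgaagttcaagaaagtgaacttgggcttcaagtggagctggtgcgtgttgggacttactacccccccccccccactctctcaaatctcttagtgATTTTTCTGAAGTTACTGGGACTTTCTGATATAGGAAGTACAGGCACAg
The *Ms4a4b* and *Ms4a4c* windows were identical at 230 of 300 bases after global alignment (76.7%), with a longest shared run of 20 bases. The *Ms4a6b* and *Ms4a6c* windows were identical at 192 (64.0%), with a shared run of 48 bases. Every other pair of members matched at 52.0% to 57.7%, with runs of at most 9 bases. The letters GAAANNGAA, the spacing found in interferon-stimulated response elements, stood in the windows of *Ms4a6b*, *Ms4a6c* and *Ms4a7*, once per window on either strand, and in 8.56% of all 32851 windows. In *Ms4a6b* and *Ms4a6c* the match read gaaagtgaa, at position 45 and 118 of the window. The letters TTCNNNGAA, the spacing of STAT sites, were in none of the members' windows on either strand and in 8.30% of all windows.

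Cells were placed in 5 classes by marker UMIs, and no member was a gate gene. Macrophages had at least 10 *C1qa* UMIs (1887 cells, 87 to 473 per mouse). Monocytes had at least 3 *Ly6c2* and 10 *Lyz2* UMIs with at most 2 of *C1qa* (2491 cells, 170 to 405 per mouse). T cells were gated on *Cd3d*, *Cd3e* and *Cd3g* (486 cells), NK cells on *Ncr1*, *Klrb1c* and *Klre1* (146) and dendritic cells on *Flt3*, *Ccr7*, *Xcr1* and *Clec9a* with *H2-Ab1* (97). Cells that missed these minimums were left out, as were cells above set limits for some markers of other classes. In all, 51.8% of kept cells were in none of the 5 classes. T and NK cells could hold up to 2 *C1qa* and 9 *Lyz2* UMIs. No limit was set on NK or dendritic markers in T cells, or on dendritic markers in NK cells. Between macrophages and monocytes, *C1qb* and *Plac8*, both outside the gates, followed the names. *C1qb* ran from 5365 to 6991 CPM (UMIs per 1000000 UMIs of the class) in macrophages and from 176 to 330 in monocytes, and *Plac8* from 484 to 1532 and from 4487 to 6401. Not every marker did so elsewhere. Medians of *Plac8* were 1189 CPM in dendritic, 1184 in NK and 934.5 in T cells, above 745.9 in macrophages. Those of *Cd209a* were 16.74 CPM in dendritic cells and 16.77 in monocytes. Of the dendritic cells, 80 had at least 2 *Ccr7* UMIs, and the medians of *Xcr1* and *Clec9a* were 11.01 and 13.76 CPM against 2145 for *Ccr7*, so this class stands for *Ccr7*+ cells. The summed MHC class II genes *H2-Ab1*, *H2-Aa* and *H2-Eb1* in NK cells were at 7403 CPM in E0771-Res1 replicate 1. They were at 7902 in E0771-Res1 replicate 3, 10824 in E0771-Res2 replicate 3 and 579 to 3970 in the other mice. *Klre1* had a median of 225 CPM in T cells and 846 in NK cells. How far mixed cells shape the T and NK cell levels was not tested. Levels below are CPM from the summed UMIs of a class in a mouse, where the mouse had at least 10 cells of that class.

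*Ms4a4b* was the lymphocyte gene of the family. In NK cells it stood at 1161 to 2056 CPM (median 1653 over 8 mice) and in T cells at 979 to 1607 (median 1250). Monocytes held 81.7 to 118 CPM, macrophages 38.1 to 78.99 and dendritic cells 9.58 to 56.4 (6 mice), so that no lymphocyte value overlapped a myeloid one. Against monocytes, T cells were 9.00-fold higher (log2 difference 3.17 ± 0.10 SE, adjusted p = 7.51e-20, edgeR quasi-likelihood test with Benjamini-Hochberg adjustment, higher in 8 of 8 mice). The other 6 members were lower in T cells than in monocytes in all 8 mice, by 1.14 (*Ms4a6b*) to 3.90 (*Ms4a4a*) on the log2 scale. For *Ms4a7* the ranges of T cells and monocytes overlapped, and for the others they did not. All 7 were thus called, where 63.6% of the 9496 genes tested were, 32.8% higher and 30.8% lower.

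A UMI of *Ms4a4b* was found in 94.5% of CD8+ T cells, 92.5% of NK cells, 78.2% of all T cells, 35.5% of monocytes and 27.8% of macrophages. These shares are of cells with median depths of 9794, 6290, 6240, 7628 and 10016 UMIs. With each cell thinned to 3000 UMIs and kept in its class, shallower cells left out, they were 92.1%, 83.2%, 72.2%, 19.6% and 11.7% (of 139, 131, 417, 2417 and 1858 cells). With cells gated again on the thinned UMIs at lower minimums, such as 5 *C1qa* UMIs for macrophages and 1 CD3 UMI for T cells, they were 93.9%, 78.7%, 67.1%, 20.5% and 12.1%. Free RNA can place a UMI in a cell that does not make the gene, so levels were set against those of other cells' markers. In monocytes *Ms4a4b* reached 46.2% of its level over all kept cells (median of 8 mice) and in macrophages 24.7%, whereas 6 T and NK cell markers outside the gates (*Trac*, *Trbc2*, *Cd2*, *Nkg7*, *Gzma*, *Prf1*) had medians of 5.83% to 14.2% in monocytes and 5.34% to 11.2% in macrophages. The lowest monocyte value of *Ms4a4b* was 39.5%, above the highest marker value of 18.1%. In macrophages its lowest was 19.6% and a single marker, *Gzma*, reached 24.3% in 1 mouse. Reads of *Ms4a4c* wrongly counted for *Ms4a4b* could also place UMIs of *Ms4a4b* in myeloid cells, here and in the myeloid splits below, which was not tested. In monocytes the medians of *Ms4a4c* and *Ms4a4b* were 2505 and 94.0 CPM.

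Within lymphocytes, *Ms4a4b* was lower in T than in NK cells in 8 of 8 mice (log2 difference -0.49 ± 0.11, adjusted p = 0.00558), although the ranges overlapped. *Ms4a6b* went the other way: it stood at 551 to 971 CPM in T cells and 234 to 542 in NK cells, which did not overlap (0.62 ± 0.15, adjusted p = 0.00743), although the mouse that stood highest, E0771 replicate 3, was far from the rest. That difference did not pass with cells thinned to 3000 UMIs, whether in their own classes (0.40, adjusted p = 0.172) or gated again (0.37, adjusted p = 0.183). These were 2 of 6 members tested, against 10.6% of 4867 genes (5.28% higher and 5.3% lower). Among T cells, *Ms4a4b* was highest in the CD8+ cells (*Cd8a* or *Cd8b1* without *Cd4* or *Foxp3*) at 1336.5 to 2409 CPM in 7 mice. *Foxp3*+ T cells held 529 to 1058 in 6 mice and did not overlap them (log2 difference -1.13 ± 0.15, adjusted p = 7.16e-05, lower in all 5 mice with both classes). No other member of the 6 tested passed in that comparison, in which 15% of 3198 genes did (8.19% higher and 6.85% lower). GITR, the partner of MS4A4B, ran the opposite way: *Tnfrsf18* was higher in *Foxp3*+ than in CD8+ T cells (2.38 ± 0.22, adjusted p = 1.55e-06) and higher in T than in NK cells (2.39 ± 0.17, adjusted p = 3.40e-09).

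Of the 6 other members, *Ms4a6b* was the one with a lymphocyte level near its myeloid level. Its median was 674 CPM in T cells against 786 in macrophages and 1031 in monocytes, and the T cell and macrophage ranges overlapped. In T cells it reached 79.5% of its level over all cells and in NK cells 51.2%, while 7 myeloid markers (*C1qb*, *C1qc*, *Apoe*, *Trem2*, *Vcan*, *Chil3*, *Hp*) had medians of 4.55% to 13.6% in T and 1.14% to 20.2% in NK cells. *Ms4a4c* had medians of 31.0% in T and 29.4% in NK cells, above those medians, but in NK cells its range of 18.1% to 36.2% lay within that of *Trem2*, 4.39% to 38.8%. *Trem2* stood at only 9.58 to 54.7 CPM in NK cells, so its range there rests on few UMIs, whereas *Ms4a4c* had 444 UMIs. The highest NK cell values of the other markers were 7.78% to 27.0%. In T cells the lowest value of *Ms4a4c*, 17.8%, was below the highest of *Trem2*, 33.9%. The T cell range of *Ms4a6b*, 70.3% to 105%, was above that of every marker, and its NK cell range, 21.1% to 67.9%, overlapped that of *Trem2*. *Ms4a4a* (11.8%) lay within the medians of the markers in T cells, and *Ms4a7* (15.5%), *Ms4a6d* (18%) and *Ms4a6c* (19.9%) lay just above them. In NK cells *Ms4a4a*, *Ms4a6c*, *Ms4a6d* and *Ms4a7* had medians of 0% to 12.5%, none above the marker medians. A UMI of *Ms4a7* was found in 49.2% of T cells and 41.1% of NK cells. Its level in T cells, 11.1% to 31.0% of that over all cells, lay within the range of *Apoe*, 7.31% to 32.25%, so these shares are not read as expression.

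**Figure D1:**
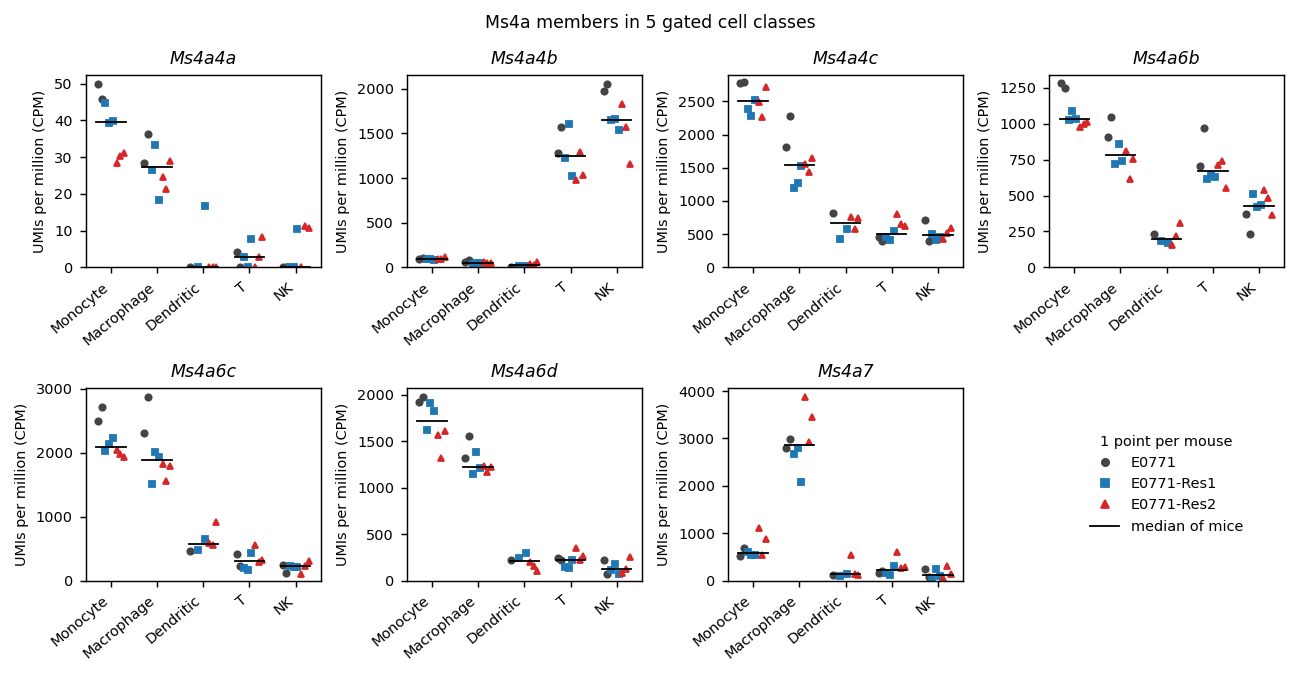
Level of each Ms4a gene in CPM (linear axis from 0, own scale per panel) in monocytes, macrophages, dendritic, T and NK cells. Each point is 1 mouse with at least 10 cells of the class, colored by tumor line, and bars are medians: *Ms4a4b* has medians of 1653 and 1250 in NK and T cells, *Ms4a7* of 2859 in macrophages, and the other 5 are highest in monocytes.

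Along with *Ms4a14*, which is not a member and is described below, *Ms4a7* was a macrophage gene. Its macrophage level was 2798 and 2987 CPM in the 2 E0771 tumors, 2676, 2798 and 2073 in those of E0771-Res1, and 3876, 2920 and 3442 in those of E0771-Res2. Monocytes of the same mice held 518 and 697, then 601, 533 and 541, then 1115, 550 and 882. The lowest macrophage value was above the highest monocyte value, and the difference was 3.90-fold (log2 1.97 ± 0.07, adjusted p = 1.03e-14, higher in 8 of 8 mice). *Ms4a7* had a UMI in 98.9% of macrophages and 66.6% of monocytes.

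The other 6 members were lower in macrophages than in monocytes, by 0.35 to 1.10 on the log2 scale. *Ms4a4c* stood at 2259 to 2785 CPM in monocytes and 1203 to 2287 in macrophages (log2 difference -0.87 ± 0.06, adjusted p = 6.37e-10, lower in 8 of 8 mice), and E0771 replicate 3 was the 1 macrophage value that reached the monocyte range. *Ms4a4b* was the farthest apart (-1.10 ± 0.09, adjusted p = 3.32e-09) and the only one of the 6 whose ranges did not overlap. *Ms4a4a* (-0.70 ± 0.11), *Ms4a6b* (-0.62 ± 0.05) and *Ms4a6d* (-0.60 ± 0.05) were lower in 8 of 8 mice as well. *Ms4a6c* was nearly level: 1940 to 2720 CPM in monocytes, 1518 to 2875 in macrophages, and lower in 7 of 8 mice (-0.35 ± 0.05, adjusted p = 1.97e-05). The sum of *Isg15*, *Ifit1*, *Ifit2*, *Ifit3* and *Rsad2*, interferon genes used below, was 6175 to 8199 CPM in monocytes and 1831 to 5630 in macrophages. The part of interferon genes in these differences, and along the *C1qa* steps below, was not tested. With 7 of 7 members called, 1 higher and 6 lower, the background was 53.6% of 9354 genes, 26.1% higher and 27.5% lower. The members' median was -0.62 and that of all genes tested 0.02. These fits scale each library by TMM, the trimmed mean of M values, which set the members 0.18 lower in this comparison, 0.46 lower between T cells and monocytes and 0.29 higher between interferon-high and interferon-low monocytes than plain CPM does.

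Along cells with at least 10 *Lyz2* UMIs, graded by *C1qa* into 0, 1 to 2, 3 to 9, 10 to 29 and 30 or more UMIs, *Ms4a7* went up at each step, with medians of 568.2, 712, 1094, 1816 and 3102 CPM. *Ms4a4c* went down at each step, from 2323 through 2216, 1935 and 1782 to 1365 CPM, and *Ms4a6d* from 1680 to 1200 CPM. *Ms4a6b* had medians of 967 and 812 CPM at the ends and *Ms4a6c* of 1977 and 1837, with ranges over the mice that overlapped. *Ms4a4b* had medians of 100.98 and 48.4 CPM at the ends, where the ranges did not overlap, without falling at every step. No test was run along these steps. Cells with 30 or more *C1qa* UMIs were also deeper, with a median of 12324 UMIs against 7524 in cells with none, and the part of depth was not tested. The steps of 3 to 9 and 10 to 29 UMIs held 28 to 86 and 24 to 117 cells per mouse, and the values there are those of few cells.

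**Figure D2:**
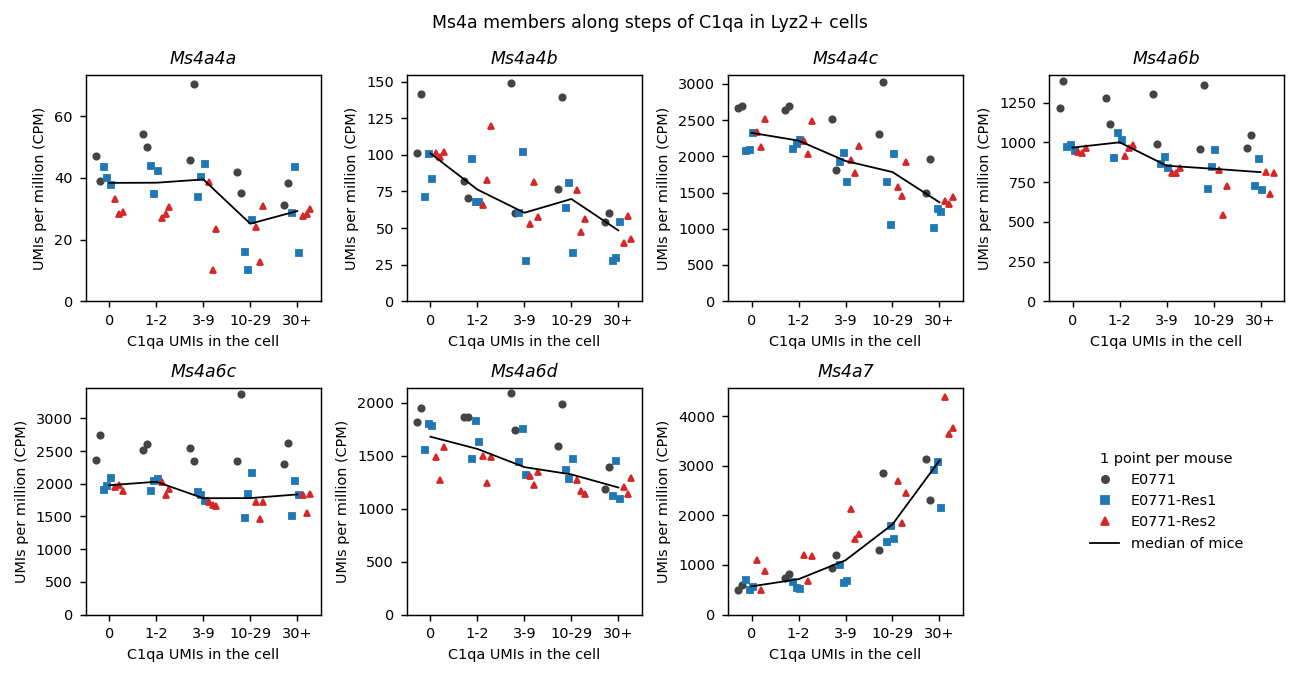
Level of each Ms4a gene in CPM (linear axis from 0) in *Lyz2*-expressing cells grouped by their *C1qa* UMIs. Points are the 8 mice, colored by tumor line, and the line joins medians: *Ms4a7* goes from 568.2 to 3102, *Ms4a4c* from 2323 to 1365, and *Ms4a6c* stays between 1779 and 2031.

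In dendritic cells, mostly *Ccr7*+ ones, all 7 members were lower than in monocytes. The medians of *Ms4a4c* and *Ms4a6c*, 666 and 576 CPM, were above those in T cells, 503 and 304, with ranges that overlapped. In the 6 mice with at least 10 such cells, *Ms4a6d* stood at 98.7 to 301 CPM against 1319 to 1918 in their monocytes (log2 difference -3.09 ± 0.18, adjusted p = 5.65e-33), and *Ms4a6b* at 159 to 310 against 976 to 1287 (-2.44 ± 0.17, adjusted p = 1.81e-25). *Ms4a4b*, *Ms4a4c*, *Ms4a6c* and *Ms4a7* were lower by 1.97, 2.06, 1.91 and 2.03, and *Ms4a4a* had 2 UMIs in the 97 cells. For *Ms4a7*, 1 E0771-Res2 mouse at 536 CPM reached the monocyte range and the other 5 lay between 102 and 142. Each member was lower in 6 of 6 mice, and 7 of 7 were called where 32.2% of 8147 genes were, 12.8% higher and 19.4% lower. The gate was also widened by *Cd209a* and *Zbtb46* with 1 CD3 UMI allowed, which was chosen after seeing the data. *Ms4a6b* then differed by -1.58 and *Ms4a6c* by -1.30, and all 7 were again called. *Tmem176a* and *Tmem176b*, related tetraspan genes outside the cluster, were high in these cells: *Tmem176a* stood at 837 to 1234 CPM against 34.1 to 61.7 in monocytes of the same mice (4.24 ± 0.17, adjusted p = 8.39e-48). *Ccr7*+ and *Ccr7*- dendritic cells could not be compared, since only 14 cells had no *Ccr7* UMI.

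Across the 38 sums of class and mouse, *Ms4a4c*, *Ms4a6c* and *Ms4a6d* went together (Pearson r of log2 CPM 0.933 to 0.938 between pairs). *Ms4a4b* ran against them, with r from -0.755 (*Ms4a6c*) to -0.589 (*Ms4a4c*), and was unrelated to *Ms4a6b* (0.059). These sums share mice and classes, so r mostly describes the classes. Among 6178 genes, the closest to *Ms4a7* were *Apoe*, *Itm2b* and *Ctsb* (0.973, 0.948 and 0.947). *Gimap4*, *Gimap3* and *Sh2d2a* came closest to *Ms4a4b* (0.972, 0.972 and 0.966), and *Tpd52*, *Ifi204* and *Slfn2* to *Ms4a4c* (0.970, 0.970 and 0.962). *Fcgr1*, the high-affinity IgG receptor, led for *Ms4a6d* (0.980), *Atp6v0c* for *Ms4a6c* (0.973), *Itgb2* for *Ms4a6b* (0.915) and *Lyz2* for *Ms4a4a* (0.902).

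Within the myeloid classes, most members were higher in cells with a stronger interferon response. Cells of each mouse were ranked by the share of UMIs from *Isg15*, *Ifit1*, *Ifit2*, *Ifit3* and *Rsad2*, genes that interferon induces, and cut into 3 equal parts, of which the highest was set against the lowest. *Ms4a4b* had 144 to 170.5 CPM in interferon-high and 29.5 to 53.6 in interferon-low monocytes (log2 difference 2.13 ± 0.11, adjusted p = 1.26e-14). *Ms4a4c* had 3457 to 4054 and 853 to 1783 CPM (1.85 ± 0.09, adjusted p = 2.54e-15). *Ms4a6d* had 1890 to 2828 and 719 to 1287 CPM (1.55 ± 0.08, adjusted p = 5.06e-15). None of these ranges overlapped, and neither did that of *Ms4a6b*.

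*Ms4a6b* (1.08 ± 0.07), *Ms4a4a* (1.03 ± 0.15) and *Ms4a6c* (0.83 ± 0.07) were higher in interferon-high cells too, each in 8 of 8 mice. *Ms4a7* was the exception, with a difference of 0.18 ± 0.13 (adjusted p = 0.301) and, in plain CPM, values from -0.97 to 1.04 in single mice, of which 5 of 8 were below 0. Thus 6 of 7 members were called, all higher, where 39.7% of 6978 genes were called, 21.6% higher and 18.1% lower. The median of the members was 1.08 and that of all genes -0.04. Both parts had like depths (medians of 7484 and 7873 UMIs).

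In macrophages the same split gave 5 called members, all higher, where 22.9% of 6606 genes were called, 14.4% higher and 8.54% lower. *Ms4a4c* had 2258 to 3111 CPM in interferon-high and 439 to 1099 in interferon-low macrophages (1.89 ± 0.10, adjusted p = 3.53e-13, 8 of 8 mice). *Ms4a4b* was higher in 7 of 8 mice (1.31 ± 0.18, adjusted p = 4.86e-06), and the other mouse, E0771-Res1 replicate 2, was at -0.40. *Ms4a6b* (0.94 ± 0.09), *Ms4a6c* (0.75 ± 0.07) and *Ms4a6d* (0.73 ± 0.08) were higher in 8 of 8 mice. *Ms4a4a* did not pass (0.45 ± 0.18, adjusted p = 0.0715), and without E0771 replicate 3, whose value was -0.64, it did (0.53, adjusted p = 0.0378), as with the relaxed gates (0.51, adjusted p = 0.0187). *Ms4a7* again did not pass (0.03 ± 0.07, adjusted p = 0.80), and its sign turned in 4 of 20 alternatives and in plain CPM, where it was lower in 7 of 8 mice. In both classes *Trem2* was lower in interferon-high cells, by 1.06 in monocytes and 0.68 in macrophages on the log2 scale.

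**Figure D3:**
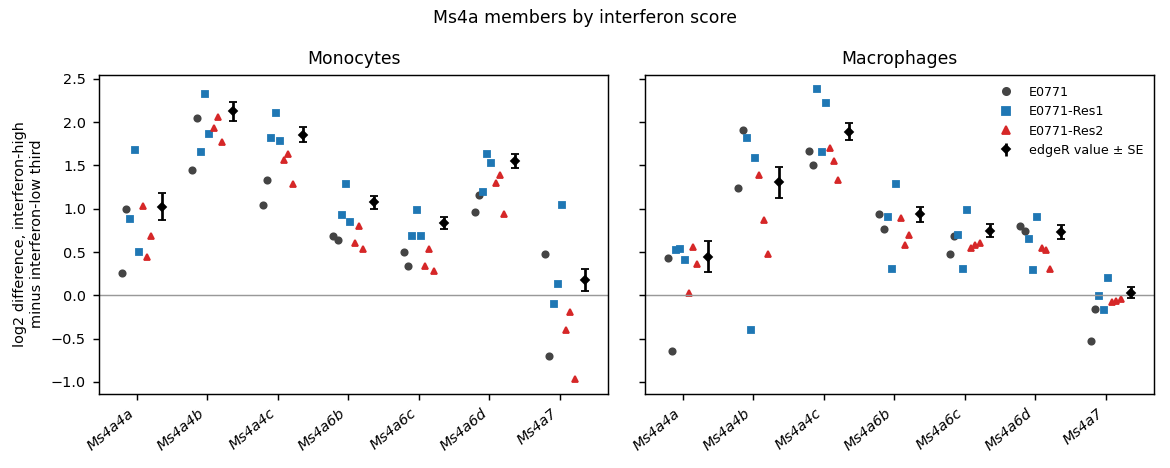
Log2 difference in CPM between interferon-high and interferon-low cells of each mouse (points, colored by tumor line), in monocytes and macrophages. Black diamonds are the edgeR values with their SE, which scale libraries by TMM and so can lie above the mean of the points: *Ms4a4b* and *Ms4a4c* reach 2.13 and 1.85 in monocytes and *Ms4a7* is at 0.18 and 0.03.

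Among macrophages, *Ms4a7* went with *Trem2*, a lipid-binding receptor. Ranked by *Trem2* share and cut in the same way, *Trem2*-high cells held 3150 to 4668 CPM and *Trem2*-low cells 1419 to 3123, higher in 8 of 8 mice with no overlap (0.60 ± 0.07, adjusted p = 1.9e-06). *Ms4a4c* was lower in 8 of 8 mice (-0.66 ± 0.07, adjusted p = 6.22e-07). *Ms4a4b* (-0.65 ± 0.16, adjusted p = 0.00864), *Ms4a6b* (-0.30 ± 0.06) and *Ms4a6c* (-0.25 ± 0.06) were lower as well. With cells thinned to 3000 UMIs in their own classes, *Ms4a4b* and *Ms4a6c* no longer passed (adjusted p = 0.317 and 0.214) and *Ms4a6b* did (0.0162), while with cells gated again after thinning none of the 3 passed (0.508, 0.333 and 0.174). *Ms4a4b* also lost its call without E0771-Res1 replicate 1 (0.081), with DESeq2 (0.0565) and without the 5% of cells with most UMIs (0.0524). *Ms4a6c* lost it without E0771-Res1 replicate 1 (0.0678), without E0771-Res2 replicate 3 (0.0571) and with the gate at 20 *C1qa* UMIs (0.0777). The 5 members called stood beside 11.3% of 6648 genes (4.92% higher and 6.33% lower), and the *Trem2*-high cells were deeper (10634 against 8802 UMIs at the median).

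*Folr2*, a folate receptor of resident-type macrophages, gave a like split in the 6 mice with at least 10 cells on each side. *Ms4a7* was higher in *Folr2*+ cells (3142 to 4843 against 2476 to 3795 CPM, 0.36 ± 0.08, adjusted p = 0.00426, higher in 5 of 6 mice). *Ms4a4b* (-0.99 ± 0.21, adjusted p = 0.00372) and *Ms4a4c* (-0.61 ± 0.10, adjusted p = 0.000285) were lower, and *Ms4a4b* had no call without E0771-Res1 replicate 1 (adjusted p = 0.0627) or with cells thinned to 3000 UMIs in their own classes (-0.62, adjusted p = 0.475). These were 3 of 7, where 5.62% of 7851 genes were called (2.69% higher and 2.93% lower), and *Folr2*+ cells were deeper (12140 against 9844 UMIs at the median). Ranked by *H2-Ab1*, *H2-Aa* and *H2-Eb1*, genes of MHC class II, *Ms4a7* alone of the 7 was called, where 6.91% of 6791 genes were (3.86% higher and 3.05% lower). It stood at 1730 to 3551 CPM in MHC class II high and 2781 to 4263 in MHC class II low cells, lower in 8 of 8 mice (-0.56 ± 0.08, adjusted p = 5.74e-05).

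**Figure D4:**
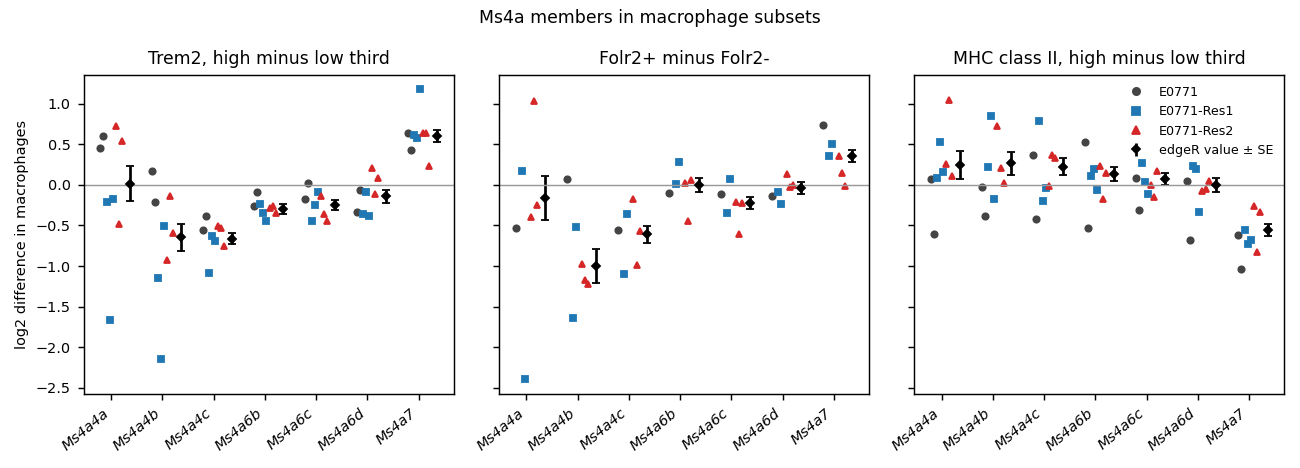
Log2 difference in CPM within the macrophages of each mouse (points, colored by tumor line) for *Trem2*-high against *Trem2*-low, *Folr2*+ against *Folr2*- and MHC class II high against low cells, with the edgeR value and SE as black diamonds. *Ms4a7* is at 0.60, 0.36 and -0.56, and *Ms4a4c* at -0.66 and -0.61 in the first panels.

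Beyond the members, most of the 12 other Ms4a symbols held few UMIs. *Ms4a14* (1865 UMIs over all kept cells) and *Ms4a8a* (1458) were the most frequent, near the 1817 of the member *Ms4a4a*. *Ms4a1* had 82 and *Ms4a3*, a gene of myeloid progenitors, 5. *Ms4a14* lies next to *Ms4a7* on the same strand, with 6584 bases between them, and went with it in 3 comparisons: it was higher in macrophages than in monocytes (1.96 ± 0.13, adjusted p = 9.04e-11), higher in *Trem2*-high cells (0.55 ± 0.16, adjusted p = 0.0262) and lower in MHC class II high cells (-0.86 ± 0.18, adjusted p = 0.00343). In the *Folr2* split, where *Ms4a7* was called, none of the 4 other Ms4a and Tmem176 genes tested was called. *Ms4a8a* went the other way from monocytes to macrophages, from 43.8 ± 11.8 to 14.0 ± 5.24 CPM (SD, n = 8), a log2 difference of -1.84 ± 0.13 (adjusted p = 2.77e-10). Of these 12 symbols and the Tmem176 pair, 4 of 14 passed the filter on low counts in that comparison, and 1 was called higher and 1 lower.

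Differences between tumor lines were smaller and rested on few mice. Over all kept cells, 4 members were lower in E0771-Res2 than in E0771 tumors, where 4.37% of 11326 genes were called and 2.25% were lower. *Ms4a6b* was at 814, 707 and 745 CPM in E0771-Res2 against 1000 and 1106 in E0771 tumors (log2 difference -0.49 ± 0.10, adjusted p = 0.0219) and *Ms4a6c* at 1723, 1481 and 1577 against 2020 and 2345 (-0.46 ± 0.11, adjusted p = 0.041). *Ms4a4a* (-0.53 ± 0.13, adjusted p = 0.0368) and *Ms4a4b* (-0.46 ± 0.12, adjusted p = 0.0458) had no overlap between the lines either. All 4 calls were lost without E0771 replicate 1, E0771 replicate 3 or E0771-Res2 replicate 3 (adjusted p = 0.0928 to 0.377). *Ms4a4a* and *Ms4a6c* were also lost without either other E0771-Res2 mouse (0.0566 to 0.0842) and with the replicate number as a block (0.0572 and 0.0558), *Ms4a4a* with thinning (0.0555), and *Ms4a4b* without E0771-Res1 replicate 3 (0.0505) or E0771-Res2 replicate 1 (0.134).

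*Ms4a7* over all cells was at 2204, 1369 and 1866 CPM in E0771-Res2 against 1152 and 1286 in E0771 tumors (0.57 ± 0.18, adjusted p = 0.106), and DESeq2 called it (0.56, adjusted p = 0.0195). So did edgeR without the filter on low counts (0.00178), with cells thinned to 3000 UMIs (0.0325), with the replicate number as a block (0.048) and without E0771-Res2 replicate 2 (0.0172), while the other alternatives gave adjusted p from 0.0618 to 0.426. Its neighbor *Ms4a14* was called (1.16 ± 0.21, adjusted p = 0.0117), as was *Trem2* (1.20 ± 0.16, adjusted p = 0.00273). In a mixture of classes, more macrophages and more RNA per macrophage cannot be told apart. Within macrophages, *Ms4a7* was not called between E0771-Res2 and E0771 tumors, and the values of these lines overlapped. The summed macrophage markers over all cells had means of 7117 CPM (E0771), 9825 (E0771-Res1) and 10415 (E0771-Res2), and the monocyte markers of 8204, 5959 and 5461. Their part in these results was not tested.

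Within classes, less was left. In monocytes, *Ms4a4a* was the only member called between E0771-Res2 and E0771: 49.99 and 45.9 CPM in E0771 against 28.5, 30.4 and 31.1 (-0.66 ± 0.15, adjusted p = 0.042), where 1.33% of 8701 genes were called. The call was lost without either E0771 mouse or any of the E0771-Res2 mice (adjusted p = 0.0505 to 0.40), with DESeq2 (0.128), without the 5% of cells with most UMIs (0.0535), with the replicate number as a block (0.0648) and with thinning (0.157 in the same classes and 0.168 gated again). *Ms4a4c*, *Ms4a6b*, *Ms4a6c* and *Ms4a6d* were also without overlap and lower in E0771-Res2 but did not pass (adjusted p = 0.616, 0.115, 0.0808 and 0.158). DESeq2 called *Ms4a6c* (-0.37, adjusted p = 0.0277), as did edgeR without the filter on low counts (0.0182), and *Ms4a6b* was called with cells thinned and gated again (-0.41, adjusted p = 0.0492).

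In macrophages, *Ms4a6c* was lower in E0771-Res2 than in E0771 tumors, 1830, 1560 and 1790 against 2310 and 2875 CPM (-0.60 ± 0.13, adjusted p = 0.0343, with 1.81% of 8706 genes called). *Ms4a4c* was lower in E0771-Res1, 1203, 1274 and 1525 against 1814 and 2287 CPM (-0.65 ± 0.13, adjusted p = 0.0448, with 0.494% called). *Ms4a7* was higher in E0771-Res2 than in E0771-Res1 macrophages, 3876, 2920 and 3442 against 2676, 2798 and 2073 CPM (0.46 ± 0.11, adjusted p = 0.046, with 3.06% called). Each of these was 1 of 7 members. Each call was lost when single mice were left out: *Ms4a6c* without E0771 replicate 3 (adjusted p = 0.41) or any of the E0771-Res2 mice, *Ms4a4c* without E0771 replicate 3 (0.436) or any of 6 others, and *Ms4a7* without E0771-Res2 replicate 1 (0.211) or any of 5 others. *Ms4a4c* was also lost with thinning (-0.45, adjusted p = 0.157 in the same classes, and -0.36, adjusted p = 0.326 gated again), without the 5% of cells with most UMIs (0.0546) and with the relaxed gates (0.0786), and *Ms4a7* with the replicate number as a block (0.0562). The summed interferon genes in macrophages were at 3250 and 5630 CPM (E0771), 2999, 1831 and 3768 (E0771-Res1) and 2453, 3004 and 3378 (E0771-Res2). The summed monocyte markers in the same cells had means of 4005, 2322 and 2189 CPM. Their part in the members' values was not tested. Depth differed between lines as well: kept cells had medians of 7001, 5677.5 and 5589 UMIs in the E0771-Res2 mice. The medians were 8112 and 8058 in E0771 and 8138.5, 8160 and 7631 in E0771-Res1. Since the macrophage gate is a fixed number of *C1qa* UMIs, a shallower cell needs a larger share of *C1qa* to pass it. The calls of *Ms4a6c* and *Ms4a7* were not lost with thinning, and the part of depth was not tested further.

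**Figure D5:**
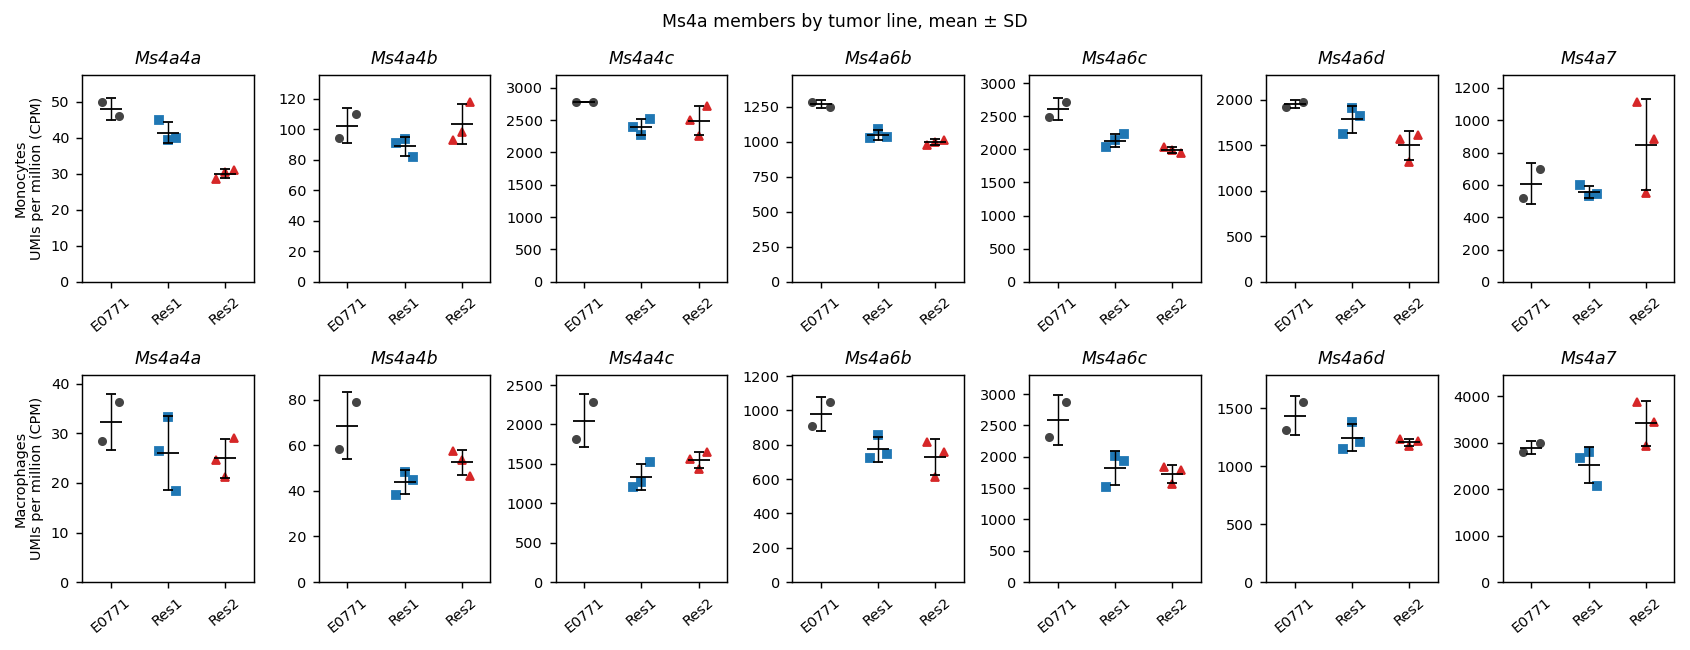
Level of each Ms4a gene in CPM (linear axis from 0) in monocytes (top) and macrophages (bottom) by tumor line, with 1 point per mouse and the mean ± SD (n = 2, 3 and 3). In monocytes *Ms4a4a* is at 49.99 and 45.9 in E0771 against 28.5 to 31.1 in E0771-Res2, and in macrophages *Ms4a7* is at 2920 to 3876 in E0771-Res2 against 2073 to 2798 in E0771-Res1.

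Elsewhere no member was called by edgeR. Between E0771-Res1 and E0771 the count was 0 of 7 over all cells (5 at an unadjusted p under 0.05, 0 by DESeq2, 0.0353% of genes called) and 0 of 7 in monocytes (2 unadjusted, 0 by DESeq2, 0% of genes called). Between the resistant lines it was 0 of 7 over all cells (1 unadjusted, 1 by DESeq2, 4.2% of genes called) and 0 of 7 in monocytes (3 unadjusted, 0 by DESeq2, 1.68% of genes called). The unadjusted counts stand beside more genes than the shares called. Between E0771-Res1 and E0771, 1189 of 11326 genes were under 0.05 unadjusted over all cells and 677 of 8701 in monocytes. Between the resistant lines, 2244 and 1164 genes were. In T and NK cells and in dendritic cells (1, 2 and 3 mice), no contrast called a member by edgeR or DESeq2, with at most 3 at an unadjusted p under 0.05 in any of them and at most 0.109% of genes called. In T cells these were 0.0175% of 5713 genes for E0771-Res2 against E0771 (332 genes unadjusted) and 0.0875% between the resistant lines (369 genes unadjusted). In the former, *Ms4a7* had 596, 267 and 282 CPM against 170 and 204 (1.08 ± 0.36, adjusted p = 0.661) and *Ms4a4c* 805, 646 and 628 against 462 and 392 (0.73 ± 0.19, adjusted p = 0.369). *Ms4a7* was called without the filter on low counts (1.07, adjusted p = 0.00195) and with cells thinned and gated again (1.85, adjusted p = 0.000118), but not when thinned cells stayed in their classes (1.10, adjusted p = 0.206). *Ms4a4c* was called with both kinds of thinning (0.96 gated again, adjusted p = 0.0476, and 1.09 in the same classes, adjusted p = 0.0459) and without the 5% of cells with most UMIs (1.03, adjusted p = 0.0402). The macrophage markers in T cells were higher there too, 2000, 1205 and 1200 against 803 and 642 CPM. The summed interferon genes in T cells were at 2581, 2121 and 2310 against 2196 and 1284 CPM. The part of either in the T cell values of *Ms4a7* and *Ms4a4c* was not tested. Whether a line difference was unlike in macrophages and monocytes was tested as an interaction, and 0 of 7 members passed for either resistant line (3 for E0771-Res1 and 1 for E0771-Res2 at an unadjusted p under 0.05, 0 by DESeq2, 0.0641% and 0.128% of 9354 genes called).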

How the data were processed

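CD45+ cells of the 8 mice used here were tagged with Cell Multiplexing Oligos, pooled and run as Chromium 3′ v3.1 libraries. The authors counted UMIs with Cell Ranger 6.1.2, per the file headers, against mm10, per the processing notes, and deposited raw UMI counts per gene and cell without normalization. Cell filters followed the study, and mt-, Rpl, Rps and numbered Gm genes were left out. Doublets were not called. Gates limited some markers of other classes, but T cells had no limit on NK or dendritic markers and NK cells none on dendritic markers. Leaving out the 5% of cells with most UMIs was an alternative. UMIs were summed per mouse and class (at least 10 cells) and tested with edgeR 4.0.16 in R 4.3.3 (TMM, filterByExpr, quasi-likelihood test, Benjamini-Hochberg over all genes tested, threshold 0.05), with mouse as a block between classes and 1 fit over the 3 groups between lines. SE is the log2 difference over the square root of F. The block came from the mice themselves. DESeq2 1.42.0 was an alternative. Members, gene lists and gates were chosen with earlier results of these data known. Named genes were the members, the other Ms4a genes, the Tmem176 pair, *Trem2*, *Tyrobp*, *Tnfrsf18* and the 3 most correlated genes of each member. On simulated data with 200 genes changed by 1.5 (log2), 100% were recovered between macrophages and monocytes (9169 genes, 6.54% of calls false), 80.5% between E0771-Res2 and E0771 macrophages (8656 genes, 3.01% false) and 79.0% between the same lines in NK cells (2307 genes, 6.51% false). Smaller changes were not simulated. Replicates of a group differed by more than independent draws of single UMIs give (chi-square per degree of freedom 2.66 to 12.4). UMIs come grouped in cells of several types, so this value does not separate differences between mice from the sampling of cells. Nothing states that mice were processed as separate batches, and all were in 1 pool.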

Additional observations from a re-analysis of the deposited data

Results flagged for a closer look

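In 4 of 67 sets of paired differences (1 gene, 1 comparison, 5 to 8 mice), 1 mouse lay farther from the others than Dixon's 95% criterion allows, where chance gives about 1 in 20. *Ms4a6b* between T and NK cells was 2.06 on the log2 scale in E0771 replicate 3, with the next mouse at 0.92 and the lowest at 0.26. *Ms4a4a* between interferon-high and interferon-low macrophages was -0.64 in E0771 replicate 3, while the others ran from 0.031 to 0.56. *Ms4a7* between *Trem2*-high and *Trem2*-low macrophages was 1.18 in E0771-Res1 replicate 3, above 0.64 in the next mouse and 0.23 in the lowest. *Ms4a6d* between dendritic cells and monocytes was -4.03 in E0771-Res2 replicate 3, with the other 5 mice between -3.12 and -2.60. All mice of a set shared the sign of the difference for *Ms4a6b*, *Ms4a7* and *Ms4a6d*.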

How the results depend on the processing

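Of 44 called differences between cell classes, 37 kept their direction and their side of the threshold under every alternative run for them, 7 lost their call under at least 1, and none turned its sign. All 8 called differences between tumor lines lost their call under at least 1 alternative, again with no change of sign. The sign of *Ms4a7* between interferon-high and interferon-low macrophages, never called, turned with the gate at 5 *C1qa* UMIs (-0.039), with thinning and new gates (-0.025), without the 5% deepest cells (-0.0080) and without E0771-Res1 replicate 3 (range over single mice left out -0.016 to 0.089). The cause was not tested. Of 136 differences that were not called and had no alternatives printed, 54 turned their sign under at least 1 alternative.

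Numbers of called members moved as follows. The share of all genes called under each alternative is not given, here or in the paragraphs below. Whether the members moved more than other genes did was not tested. Without the filter on low counts, T against NK cells gave 5 instead of 2, MHC class II 2 instead of 1, E0771-Res1 against E0771 2 instead of 0 over all cells and 4 instead of 1 in macrophages, E0771-Res2 against E0771 4 instead of 1 in monocytes, 3 instead of 1 in macrophages and 1 instead of 0 in T cells, E0771-Res2 against E0771-Res1 1 instead of 0 over all cells, in monocytes and in T cells, and the E0771-Res1 interaction 1 instead of 0. Thinned to 3000 UMIs and gated again at lower minimums, so that depth and gates changed together, the *Trem2* split gave 2 instead of 5, E0771-Res2 against E0771 2 in monocytes and 2 in T cells, E0771-Res2 against E0771-Res1 1 over all cells, 1 in monocytes and 4 in T cells, and E0771-Res1 macrophages 0 instead of 1. Thinned with every cell kept in its class, which was added after seeing the data, T against NK cells gave 1 instead of 2, the *Trem2* split 3, E0771-Res2 against E0771 0 in monocytes and 1 in T cells, the resistant lines 1 in monocytes, and E0771-Res1 macrophages 0. Without the deepest 5% of cells, monocytes of E0771-Res2 against E0771 gave 0 and E0771-Res1 macrophages 0, and E0771-Res2 gave 1 over all cells against E0771-Res1 and 1 in T cells against each other line. DESeq2 gave 2 in E0771-Res1 macrophages and 1 over all cells between the resistant lines. E0771-Res1 macrophages gave 2 with the gate at 5 *C1qa* UMIs and 0 with the relaxed gates added after seeing the data.

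With the replicate number as a block, E0771-Res2 against E0771 gave 0 in monocytes, and E0771-Res2 against E0771-Res1 gave 1 over all cells and 0 in macrophages. Nothing states that the numbers pair the mice. Same-numbered mice of different lines correlated at -0.14 to 0.24 in their deviations, and differently numbered mice at -0.28 to 0.14. Between E0771-Res1 and E0771-Res2, same-numbered mice were at 0.18, 0.046 and 0.24 and the others at -0.28 to 0.079. The deviations of the 2 E0771 mice mirror each other by construction, so these values cannot decide whether the numbers pair the mice. Without the mouse block, the *Trem2* split gave 2 and the *Folr2* split 1.

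With 1 mouse left out at a time, counts stayed at 7 for macrophages, dendritic cells and T cells, each against monocytes. They stayed at 2 for T against NK cells, 1 for *Foxp3*+ against CD8+ T cells and 6 for interferon-high monocytes. They ran from 5 to 6 for interferon-high macrophages, 3 to 5 for *Trem2*, 2 to 4 for *Folr2* and 1 to 2 for MHC class II. Between lines they ran from 0 to 4 (E0771-Res2 against E0771, all cells), 0 to 2 (each resistant line against E0771, macrophages) and 0 to 1 (E0771-Res2 against E0771 in monocytes, and the resistant lines over all cells, in monocytes and in macrophages), and were 0 in the rest. A lone E0771 mouse is then assumed to vary like the other groups.

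Depth limits the rarer genes and classes: *Ms4a4a* had 1817 UMIs in all kept cells, and dendritic and NK cells gave 97 and 146 cells. Gating again after thinning left too few cells for the *Folr2* split. Nothing shows that mice of a line were implanted or handled separately, so p-values between lines measure the spread between these mice. With mouse as a block, p-values between classes measure the spread of differences within these mice.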
